A study of Mus musculus with 30 samples.

Results

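A set of 10 genes that mark inhibitory interneurons were examined in the hippocampus of mice reared alone or in company. The genes were Gad1, Gad2, Slc32a1, Pvalb, Sst, Vip, Npy, Cck, Lamp5 and Reln. They were taken by name, through their Ensembl identifiers, and all 10 of 10 were found among the 17477 genes of the count table. All 10 passed the filter on low counts in every comparison. C57 BL/6J mice were weaned into single housing (social isolation, SI) or into cages of several animals (group housed, GH), and hippocampus was collected in adulthood. Each of the 30 libraries was polyA-selected RNA from 1 mouse, from 8 isolated and 7 group-housed females and from 7 isolated and 8 group-housed males. Females carried animal numbers from 41 to 79 and males from 1 to 39, and no group carried an engineered allele or a drug. The tissue was the whole hippocampus, so fewer cells of a type and less RNA per cell cannot be told apart in any value below.

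GABAergic interneurons make up a small share of hippocampal neurons and control when and how strongly the excitatory pyramidal and granule cells fire. Gad1 and Gad2 encode the enzymes that make GABA from glutamate, and Slc32a1 encodes the transporter that loads GABA into synaptic vesicles, so these genes are shared by nearly all interneurons. The other members mark subclasses. Pvalb, a calcium-binding protein, marks fast-spiking basket and axo-axonic cells. Sst, the peptide somatostatin, marks dendrite-targeting cells, and Vip, vasoactive intestinal peptide, marks cells that largely inhibit other interneurons. Npy, neuropeptide Y, and Lamp5, a lysosome-associated membrane protein, are used by neurogliaform and ivy cells, and Cck, cholecystokinin, by another set of basket cells. Reln, the secreted glycoprotein reelin, is made by Cajal-Retzius cells and by some interneurons. Cck and Lamp5 messages are also found in excitatory neurons, so a whole-tissue value for them does not belong to interneurons alone.

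The sequence before the start of the neuropeptide genes is shown because somatostatin transcription is the textbook case of control through the cyclic AMP response element (CRE). RefSeq windows on GRCm38.p6, a build other than that of the counts, held all 10 members, and with alternative starts of Pvalb and Lamp5 there were 12 windows. The 120 bases before each start are given 5′ to 3′ on the gene's strand. Capitals mark the CRE, TGACGTCA, or, where it is absent, its half-site, TGACG or the reverse complement CGTCA.
Sst (chr16:23890845-23890964, minus strand): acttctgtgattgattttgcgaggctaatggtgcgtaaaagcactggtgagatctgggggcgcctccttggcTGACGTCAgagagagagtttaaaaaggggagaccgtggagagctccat
Vip (chr10:5639098-5639217, plus strand): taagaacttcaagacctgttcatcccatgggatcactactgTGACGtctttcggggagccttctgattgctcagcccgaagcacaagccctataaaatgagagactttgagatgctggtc
Cck (chr9:121495695-121495814, minus strand): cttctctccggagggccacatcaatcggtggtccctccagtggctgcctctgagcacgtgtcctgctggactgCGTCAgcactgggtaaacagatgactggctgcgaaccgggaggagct
Npy (chr6:49822590-49822709, plus strand): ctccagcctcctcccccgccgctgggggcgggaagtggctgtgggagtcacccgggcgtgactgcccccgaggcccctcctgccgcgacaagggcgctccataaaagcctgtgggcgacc
Of the members, Sst alone held the full CRE within 250 bases, 48 bases before its start, against 1.55% of all 32851 RefSeq windows searched on both strands. A half-site, which every full CRE contains on either strand, was present before the start of 4 of the 10 members (Sst, Vip, Cck and Gad2), against 17.8% of all windows. It lay 79 bases before the start of Vip, 47 before Cck and 33 before Gad2. The Npy window held neither. A TATAAA sequence on the gene's strand was found before Vip only among the members, 30 bases from its start, and in 7.59% of all windows. These are matches of letters and not measured binding sites.

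Library totals ran from 18809307 to 100844898 counts, and the SI males had the lowest median total of the 4 groups (25609585). The libraries of SI males 25, 33 and 39 stood apart from the remaining 27. In each library the log2 level of a gene relative to its mean over all mice was set against the log2 of its transcript length, and the slope was -0.48, -0.46 and -0.37 in those 3 males and between -0.13 and 0.18 in the other 27. They held more counts from short transcripts and fewer from long ones, and male values without them are given below beside many of the results.

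All members were well expressed, with at least 259 counts in every library (Vip had the lowest count). Levels are given as CPM (each gene's share of the library's counts, scaled to a fixed library total), divided by transcript length in kilobases where genes are compared with each other. Per kilobase, the medians over 30 mice were 419 for Sst and 369 for Cck, and the ranges of these 2 peptides overlapped widely. Npy followed at 70.1, Gad1 at 64.5, Pvalb at 44.1 and Slc32a1 at 32, each with a range that overlapped its neighbours in the order. Lamp5 (17.4), Gad2 (15.6) and Vip (9.02) formed a lower run, again with overlapping neighbours. Reln was lowest at 3.19 CPM per kilobase. Gaps between neighbouring ranges were found at 2 places in this order: the lowest mouse for Cck, 264, lay above the highest for Npy, 142, and the highest mouse for Reln, 5.52, lay below the lowest for Vip, 5.61. These lengths are those of the longest annotated coding transcript, from 566 bases for Npy to 11702 for Reln, so the order depends on which transcript is used.

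**Figure D1:**
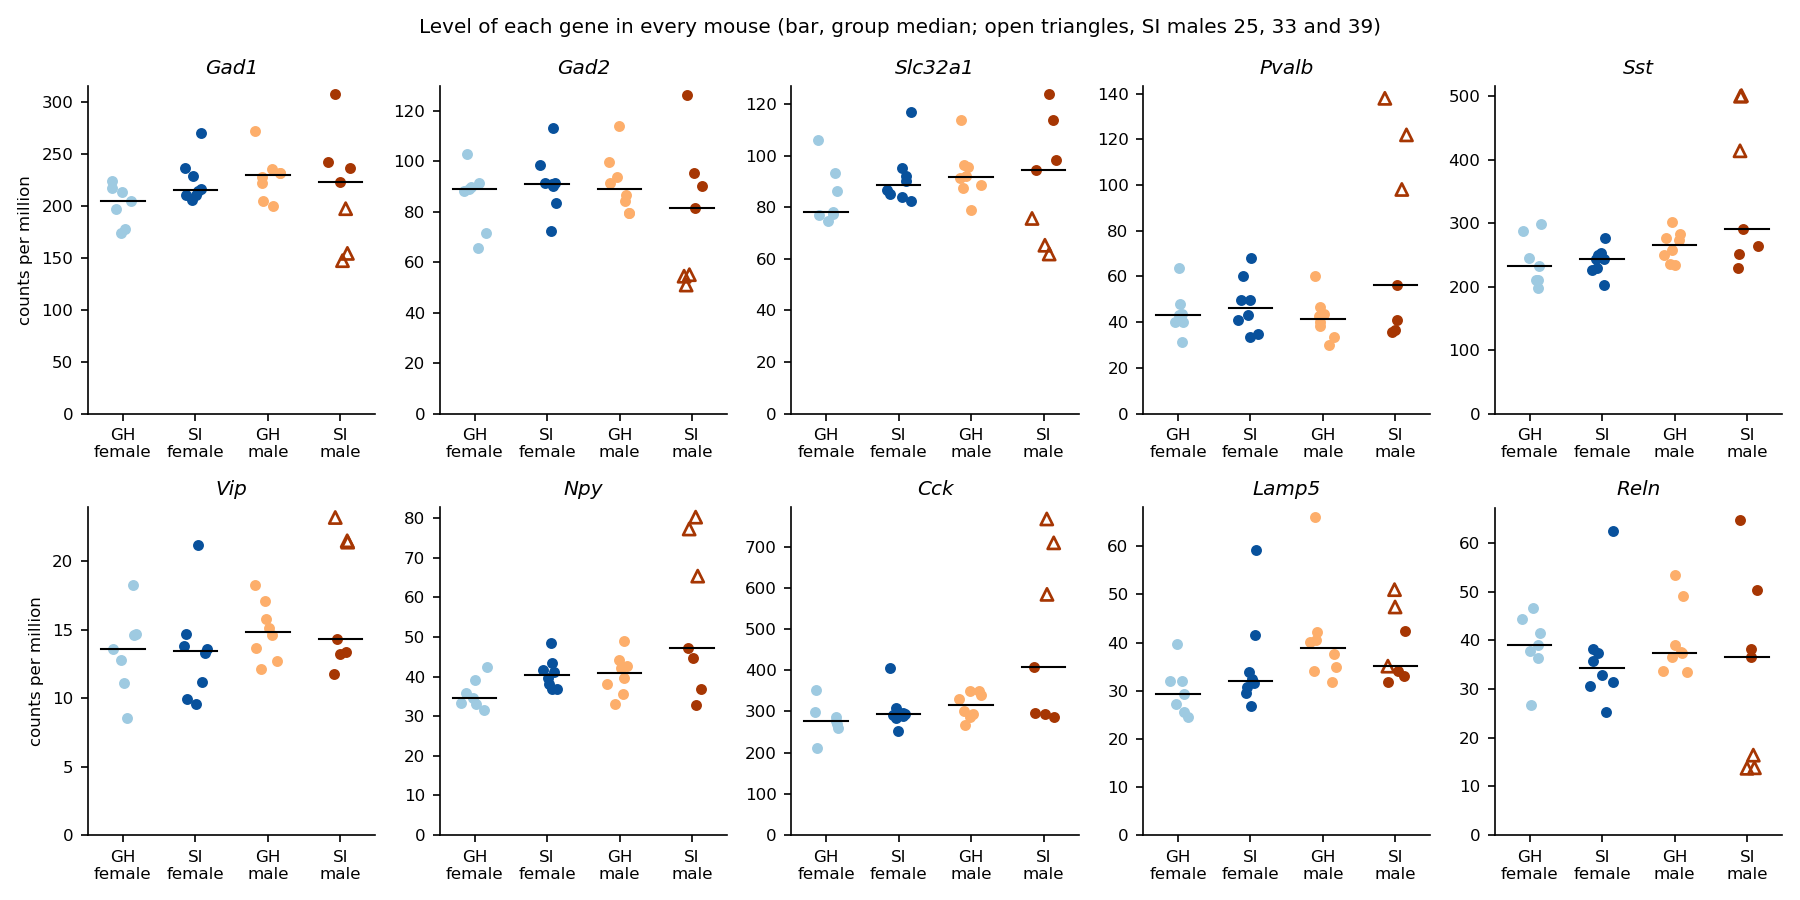
Level of each of the 10 genes (CPM, linear axis from 0) in every mouse of the 4 groups, with a bar at the group median. Open triangles are SI males 25, 33 and 39, which lie above the 12 other males for Pvalb, Sst, Vip, Npy and Cck and below them for Gad1, Gad2, Slc32a1 and Reln.

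In females, the question was whether isolation changed the interneuron genes. Npy was higher in SI than in GH mice, by 0.15 on the log2 scale (10.7%), and was the 1 member of 10 that passed an adjusted p of 0.05. Across all 16026 genes tested, 3.89% passed, 0.961% higher and 2.93% lower. The fitted change was above 0 for 8 of the 10 members, against 52.8% of all genes, with a median Log2FC of 0.09 for the members and 0.0077 for all genes. At an unadjusted p under 0.05 there were 3 members, Gad1, Npy and Lamp5, all higher, where 20.2% of all genes passed in either direction and 9.29% higher. For no member were the SI and GH females fully separate, as they were for 0.3% of all genes.

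Npy was at 36.8, 40.5 and 48.5 CPM (lowest, median and highest) in the 8 SI females, and at 31.6, 34.5 and 42.4 CPM in the 7 GH females. All 8 SI females lay above the GH median and 2 lay above the highest GH female, so the groups overlapped. The fitted Log2FC was 0.15 with an SE of 0.0365 (edgeR quasi-likelihood test with 3 surrogate variables, Benjamini-Hochberg adjusted p = 0.0351). The label titles carry a position code with a digit from 1 to 4, and GH females were found at 3 of the 4 digits. Within those digits the log2 ratio of mean Npy CPM was 0.29, 0.14 and 0.22, above 0 in each. The call was kept in 6 of 13 alternative fits, among them limma-voom with quality weights and no surrogate variables (0.21, adjusted p = 0.043). It was lost in 7, among them edgeR without surrogate variables (0.19, edgeR adjusted p = 0.276), a fit in which no gene was called and 1875 had an unadjusted p under 0.05. It was kept in 6 of the 15 fits that left out 1 female, where its Log2FC ran from 0.12 to 0.23 (those without SI females 41 or 52 or GH females 46, 47, 78 or 79), and it was lost without each of the 9 others.

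The genes of GABA synthesis and loading lay above 0 in females without passing the adjusted threshold. Gad1 was at 205, 215 and 270 CPM in SI females and at 174, 204 and 224 CPM in GH females. All 8 SI females exceeded the GH median and 3 exceeded the highest GH female. Its Log2FC was 0.13 with an SE of 0.0457 (edgeR adjusted p = 0.12). Gad2 and Slc32a1 each had a Log2FC of 0.08, with SEs of 0.0585 and 0.0476 and edgeR adjusted p-values of 0.506 and 0.349. For Slc32a1, too, all 8 SI females lay above the GH median of 78.2 CPM, with 1 above the highest GH female.

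Among the subclass genes, Lamp5 had the largest fitted difference in females. It was at 26.8, 32.1 and 59.3 CPM in SI females and at 24.5, 29.4 and 39.8 CPM in GH females. Of the 8 SI females, 7 lay above the GH median and 2 above the highest GH mouse. The Log2FC was 0.22 with an SE of 0.0706 (edgeR adjusted p = 0.0918), and it passed the threshold in 1 of 15 fits that left out a mouse, that without SI female 52 (0.28, edgeR adjusted p = 0.0247). Within position digits the log2 ratio of mean Lamp5 CPM was 0.69, 0.12 and 0.09.

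Pvalb and Cck each had a Log2FC of 0.10 in females, with SEs of 0.0562 and 0.0492 (edgeR adjusted p = 0.336 and 0.267). Cck was at 252, 292 and 405 CPM in SI females against 211, 276 and 352 CPM in GH females, and 7 of 8 SI mice lay above the GH median. Sst differed by -0.04 with an SE of 0.0483 and Vip by 0.03 with an SE of 0.0598, both within their standard errors (edgeR adjusted p = 0.726 and 0.847). Reln stood on the other side, with a Log2FC of -0.10 and an SE of 0.0888 (edgeR adjusted p = 0.571). It was at 25.3, 34.3 and 62.5 CPM in SI females against 26.6, 39.1 and 46.6 CPM in GH females, and 1 of the 8 SI females lay above the GH median. That mouse, female 45, was also the highest of all females for Reln, and without it the Log2FC was -0.19.

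**Figure D2:**
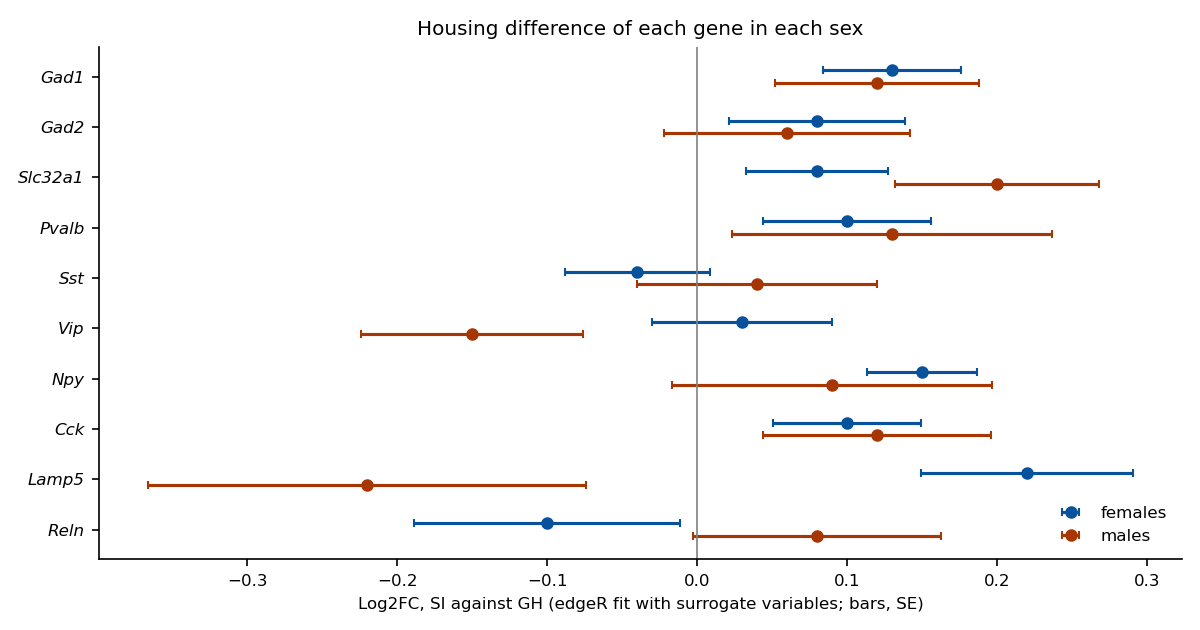
Log2FC of SI against GH for each gene, from the edgeR fit with surrogate variables, in females and in males, with bars of 1 SE either side. Npy in females, at 0.15, is the 1 value of the 20 that passed the adjusted threshold, and Lamp5 lies at 0.22 in females and -0.22 in males.

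In males, no member passed the adjusted threshold, and neither did any of the 15833 genes tested (0%). With edgeR and 2 surrogate variables, 1 of 10 members had an unadjusted p under 0.05, against 13% of all genes (5.63% higher), and DESeq2 without surrogate variables called 304 genes, among them 1 member. For no member were the SI and GH males fully separate, as they were for 0.0568% of all genes. The median Log2FC of the members was 0.08, with 8 of 10 above 0, and that of all genes was -0.002, with 49.3% above 0. Slc32a1 was the member with the smallest p. It was at 61.9, 94.6 and 124 CPM in SI males and at 79.1, 91.7 and 114 CPM in GH males. The 3 lowest SI values were those of males 25, 33 and 39, and the other 4 SI males lay between 94.6 and 124 CPM, all above the GH median. Its fitted Log2FC was 0.20 with an SE of 0.0681 (edgeR adjusted p = 0.316). The log2 ratio of the group means was -0.04 with all 7 SI males and 0.21 without those 3. SI male 38 was the highest male for Slc32a1, and the fitted value was -0.02 without that mouse. The same mouse had the highest summed level of thalamic markers in the series, 222 CPM.

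For 9 of the 10 members, all but Lamp5, the sign of the male difference turned in at least 1 alternative fit. Without surrogate variables the fitted Log2FC was 0.85 for Pvalb, 0.61 for Cck, 0.44 for Npy and 0.41 for Sst, and -0.26 for Reln and -0.20 for Gad2. With 2 surrogate variables the same genes were at 0.13, 0.12, 0.09, 0.04, 0.08 and 0.06. The log2 ratios of group means without those males were 0.02 for Pvalb, 0.03 for Cck, -0.00 for Npy and -0.03 for Sst, and 0.24 for Reln and 0.11 for Gad2. By these ratios the differences of Pvalb and of these peptide genes were near 0 in the remaining mice. The edgeR fit with surrogate variables and without SI males 25, 33 and 39 gave -0.02 for Pvalb, -0.08 for Cck, -0.15 for Npy and -0.17 for Sst. It gave 0.11 for both Reln and Gad2. Sst had an unadjusted edgeR p of 0.00962 in that fit, and no member passed the adjusted threshold. DESeq2 without surrogate variables called Cck (Log2FC 0.62, adjusted p = 0.0492) with all 7 SI males. Its levels were 287, 408 and 767 CPM in SI males and 267, 316 and 350 CPM in GH males. Without the 3 males, 1 of 4 SI males lay above the highest GH male for Cck. Leaving out SI male 27 alone, the deepest SI male library, brought 2413 genes past the edgeR threshold with surrogate variables, and Cck was the 1 member among them (Log2FC 0.26, adjusted p = 0.0143). Gad1, at 147, 223 and 307 CPM in SI and 200, 229 and 272 CPM in GH males, had a fitted Log2FC of 0.12 (SE 0.0681, edgeR adjusted p = 0.431) and a log2 ratio of means of -0.08 with and 0.14 without the 3 males. Without SI male 7 the fitted Gad1 Log2FC was 0.01, and that of Npy was 0.005 without GH male 24.

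Vip and Lamp5 were fitted lower in SI males under the fit with surrogate variables and had the same sign without the 3 libraries. Vip had a Log2FC of -0.15 with an SE of 0.074 (edgeR adjusted p = 0.395), and a log2 ratio of means of -0.18 without those males. With them it was 0.18. Lamp5 had a Log2FC of -0.22 with an SE of 0.146 (edgeR adjusted p = 0.52), with ratios of -0.06 with and -0.21 without the 3 males. It was at 31.8, 35.1 and 51 CPM in SI males and at 31.9, 38.9 and 66 CPM in GH males. The groups overlapped almost fully, and the 66 CPM belonged to GH male 2, with the next GH male at 42.1 CPM. Leaving that mouse out brought the Lamp5 Log2FC to -0.01.

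**Figure D3:**
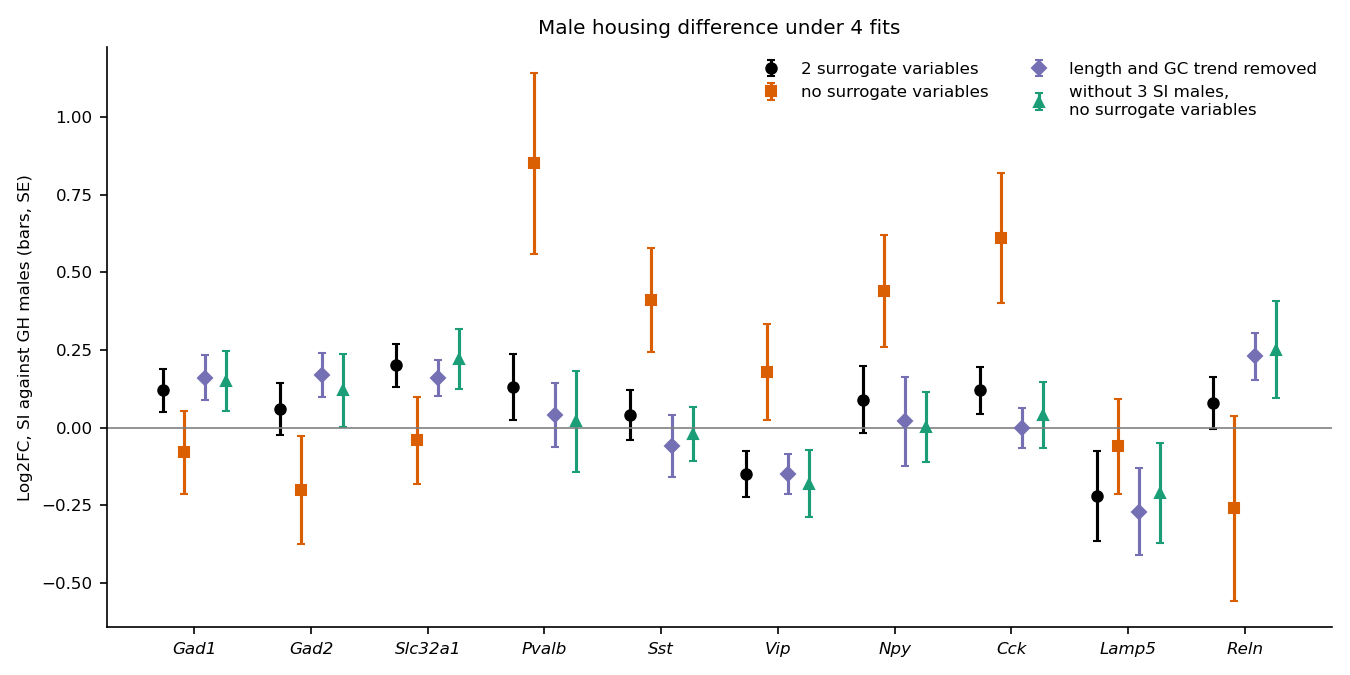
Male Log2FC (SI against GH, bars of 1 SE) of each gene in 4 edgeR fits: with 2 surrogate variables, with none, with each library's trend over transcript length and GC content removed, and without SI males 25, 33 and 39 and no surrogate variables. The last setting was chosen after seeing the data. Pvalb stands at 0.85 in the fit with no surrogate variables and at 0.13 in the fit with 2, and Reln at -0.26 and 0.08.

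In the 3 libraries the members with short transcripts were high and those with long transcripts low, though not in strict order of length. Set against the other 12 males, of both housings, the ratio of mean CPM was 2.84 for Pvalb, 2.16 for Cck, 1.83 for Npy, 1.8 for Sst and 1.53 for Vip, whose transcripts are 977, 798, 566, 599 and 1527 bases long. Lamp5, at 1955 bases, was at 1.14. The ratio was 0.703 for Gad1 (3355 bases), 0.69 for Slc32a1 (2797), 0.572 for Gad2 (5744) and 0.346 for Reln (11702). The values of the 3 males lay outside the range of the 12 others for every member but Lamp5. Pvalb, for example, was at 98.1 to 138 CPM in the 3 and at 30 to 60.2 CPM in the 12, and Reln at 13.7 to 16.4 CPM against 33.4 to 64.7 CPM.

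The 3 libraries were those with the steepest slopes over transcript length, so a shift of the whole table with length was already given. The median log2 ratio was 1.06 over 932 genes with transcripts under 1 kb, 0.52 over 3194 genes of 1 to 2 kb, -0.05 over 6388 genes of 2 to 4 kb, -0.52 over 4085 genes of 4 to 8 kb and -0.83 over 666 longer genes. Npy (0.87), Sst (0.85) and Cck (1.11) lay near the median of their length class. Pvalb, at 1.51, lay above 98.6% of all genes and above the upper quartile of its length class, 1.32. Reln, at -1.53, lay above 1.44% of all genes and below the lower quartile of its class, -1.12. Gad1 (-0.51) and Slc32a1 (-0.54) also lay below the lower quartile of their class, -0.34, and Lamp5 (0.19) below that of its class, 0.25. Gad2, at -0.81, was at the lower quartile of its class, -0.81. Vip, at 0.61, lay between the quartiles of its class, 0.25 and 0.79. RNA integrity per mouse was not analysed here, and its part in these values was not tested.

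**Figure D4:**
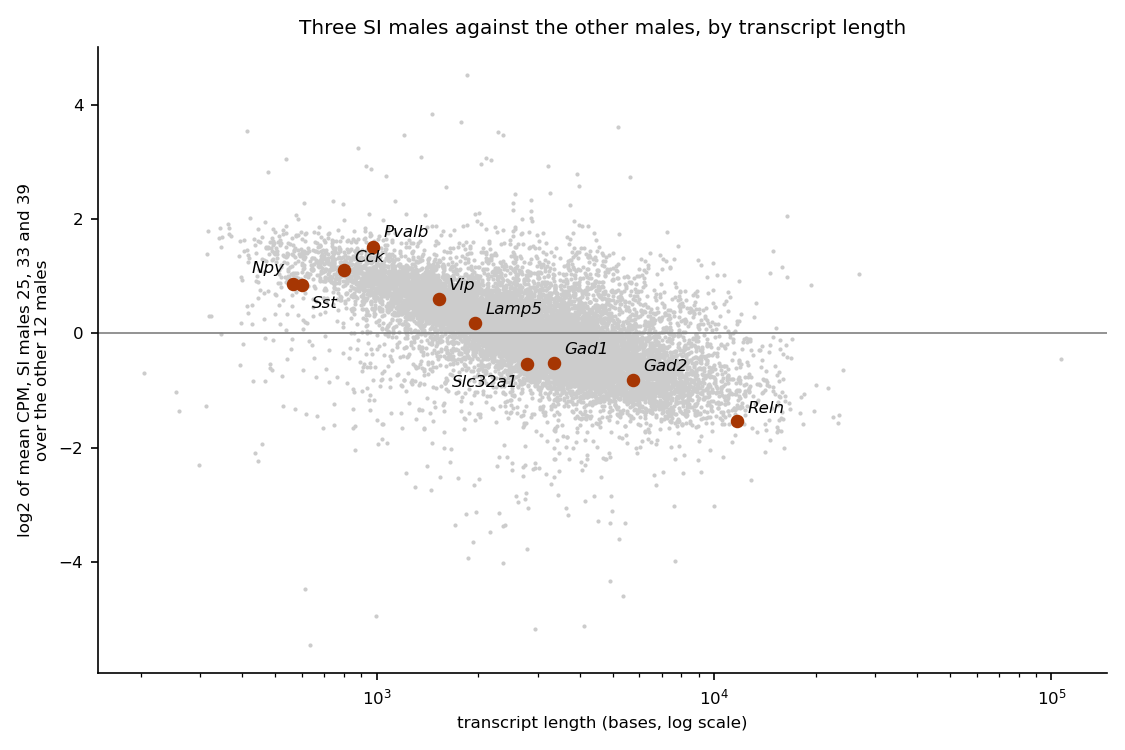
Log2 ratio of mean CPM in SI males 25, 33 and 39 over the other 12 males, for every gene with a known transcript length (grey points) against that length (bases, log axis), with the 10 genes in brown. The short Pvalb (1.51) and Cck (1.11) lie high and the long Gad2 (-0.81) and Reln (-1.53) lie low.

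Whether housing acted differently in the sexes was tested with an interaction term of both factors, fitted over the 30 mice together. No member passed the adjusted threshold, against 1 of 16391 genes (0.0061%). At an unadjusted p under 0.05 there were 3 members, Lamp5, Cck and Vip, where 7.03% of all genes passed, 4.67% in the same direction. In this joint fit the male difference was the lower for each of these. The separate fits of each sex had other surrogate variables and did not give the same differences. In them Cck was at 0.12 in males and 0.10 in females, Lamp5 at -0.22 and 0.22, and Vip at -0.15 and 0.03. In the joint fit Lamp5 had the largest value, a Log2FC in males that was 0.60 below that in females (-0.60, SE 0.158, edgeR adjusted p = 0.434). The Lamp5 difference was below 0 in every alternative fit, from -0.59 to -0.29, and in every fit that left out 1 mouse, from -0.68 to -0.48. It passed the adjusted threshold in 1 of those 30, the fit without SI male 27 (edgeR adjusted p = 0.0387). Vip differed by -0.28 (SE 0.115, edgeR adjusted p = 0.656) and Cck by -0.14 (SE 0.0557, edgeR adjusted p = 0.648), and both turned above 0 without surrogate variables. Npy, the member called in females, differed between the sexes by -0.18 with an SE of 0.0944 (edgeR adjusted p = 0.722), so its change was not shown to differ between them. The other 6 members had an unadjusted p above 0.05.

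The members fell into blocks that varied together between mice of a group. Spearman's rho was computed on log2 CPM with the 4 group means removed, as a description, since all genes of a mouse share its library. Gad1, Gad2 and Slc32a1 had rho from 0.78 to 0.92 over 30 mice and from 0.53 to 0.88 over the 27 mice without SI males 25, 33 and 39. Sst, Npy, Cck, Pvalb and Vip formed a second block, with 10 pairs from 0.65 to 0.90 over 30 mice and from 0.29 to 0.77 over 27. Between the blocks, the 15 pairs ran from -0.86 to -0.35 over 30 mice. Over 27 mice they ran from -0.72 to 0.32, with 4 pairs above 0. The first block holds transcripts of 2797 to 5744 bases and the second those of 566 to 1527 bases. Reln (11702 bases) and Lamp5 (1955 bases) are not counted in these ranges and pairs. With the first block, Reln had rho from 0.75 to 0.90 over 30 mice and from 0.46 to 0.79 over 27. With the second, Lamp5 had rho from 0.52 to 0.78 over 30 mice and from 0.50 to 0.84 over 27.

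The genes most like each member across the 30 mice, among 14153 genes with a mean of at least 1 CPM are given as likeness alone, since depth and length profile are shared within a library. For Gad1 they were Trappc11 and Wdr47 (rho 0.95 each), and for Gad2 Brd1 (0.95) and E2f3 (0.94). Slc32a1 was nearest to Zc3h3 (0.93) and Kat2a (0.92), and Reln to Kidins220 and Rnf150 (0.97 each), with transcripts of 7402 and 9685 bases. Sst and Npy had the same nearest gene, Eif3g (0.94 and 0.91), whose transcript is 1075 bases long. Bex2 was second for Sst (0.92) and ENSMUSG00000109523, which has no symbol in the tables used, for Npy (0.90). Pvalb was nearest to Anapc11 and Dtnbp1 (0.97 each), with transcripts of 3229 and 1349 bases against its own 977. Vip was nearest to Rnf227 (0.96) and Cinp (0.95), Cck to Psmc3 and Atp6v0d1 (0.96 each), and Lamp5 to Dkkl1 (0.90) and Smim43 (0.86). No member was among the 2 nearest genes of another. Over the 27 mice without SI males 25, 33 and 39 the nearest genes were others for every member but Npy, whose nearest was then ENSMUSG00000109523 (0.86). Gad1 was nearest to Cap1 (0.94), Pvalb to Psmc5 (0.94), Sst to Fxyd7 (0.89) and Reln to Prrc2c (0.96).

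**Figure D5:**
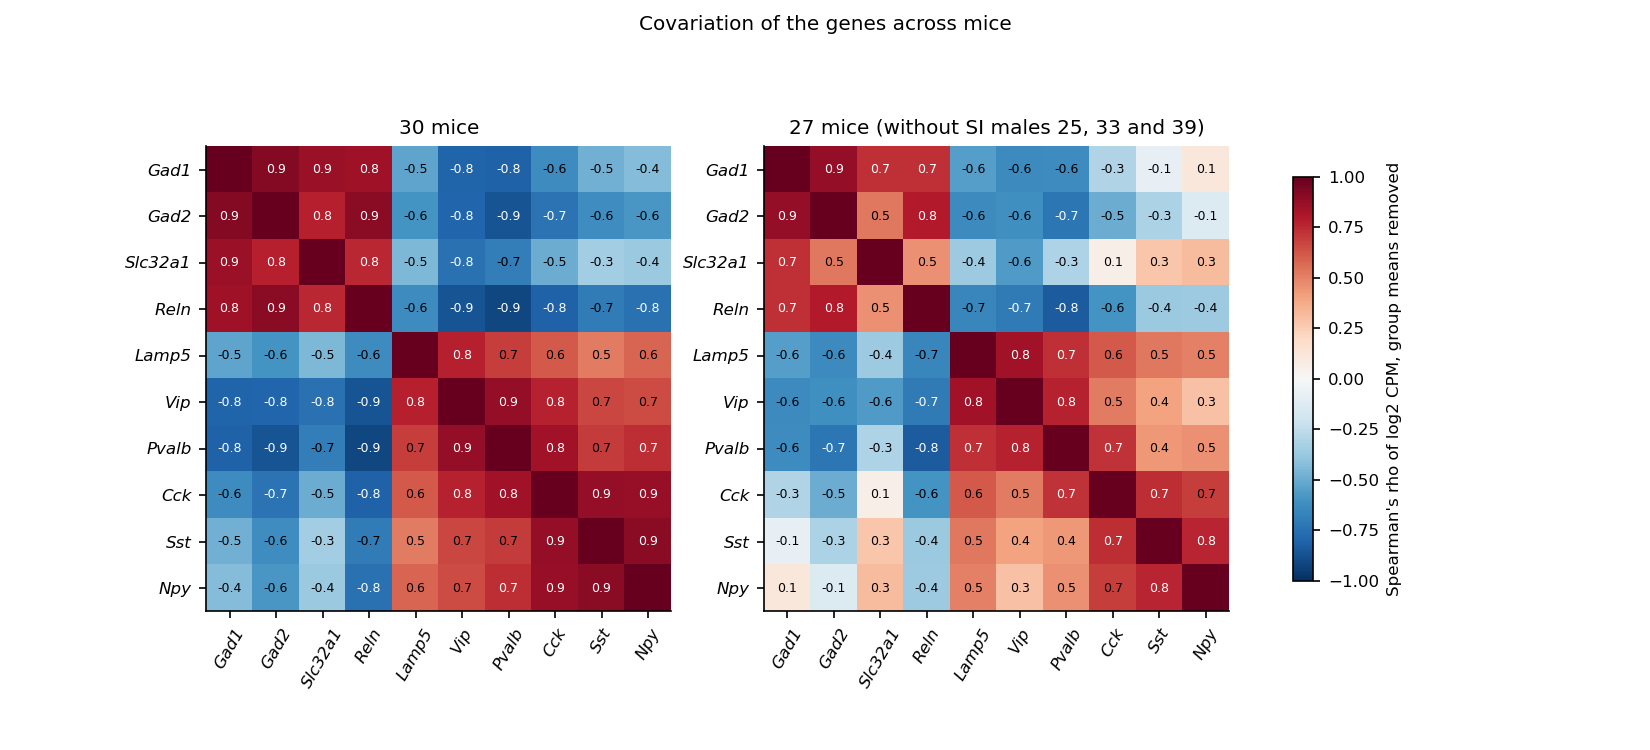
Spearman's rho of log2 CPM, group means removed, for each pair of the 10 genes over 30 mice and over the 27 mice without SI males 25, 33 and 39. Gad1, Gad2, Slc32a1 and Reln form a block of positive values in the upper left, as do Lamp5, Vip, Pvalb, Cck, Sst and Npy in the lower right.

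Relative to the 2 GABA-synthesising enzymes, the ranges of all 7 subclass genes overlapped between SI and GH in both sexes. The ratio of Npy to the sum of Gad1 and Gad2 in CPM was 0.108, 0.129 and 0.172 (lowest, median and highest) in SI females and 0.103, 0.125 and 0.177 in GH females. That of Sst was 0.636, 0.766 and 0.977 against 0.658, 0.81 and 1.2, and that of Reln 0.0895, 0.113 and 0.163 against 0.111, 0.14 and 0.152. In SI males, the Pvalb ratio reached 0.699 with the 3 libraries and 0.174 without them, against 0.2 in GH males.

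Other genes of interneurons and of GABA handling were described through 5 further lists. Of 6 genes for GABA uptake, breakdown and glutamine supply, 1 was lower in SI females and none higher: Aldh5a1, which encodes the last enzyme of GABA breakdown, fell by 0.19 on the log2 scale (SE 0.0513, edgeR adjusted p = 0.0457). Its mean level was 93.9 ± 6.94 CPM (SD, n = 8) in SI and 111 ± 12.3 CPM (SD, n = 7) in GH females. Abat, the GABA transaminase that acts before it, was at -0.20 (edgeR adjusted p = 0.0618), and the list's median was -0.13 against 0.0077 for all genes. With length and GC trends removed, Aldh5a1 (-0.21) and Abat (-0.22) were both lower, with edgeR adjusted p-values of 0.0112 and 0.0241. In males none of the 6 passed, with Aldh5a1 at -0.15 and Abat at -0.11 (edgeR adjusted p = 0.398 and 0.588), and at 0.04 and 0.09 without the 3 males.

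Of 14 transcription factors of interneuron lineages, 1 fell in females. Sox6, needed for the maturation of Pvalb and Sst interneurons and also expressed in oligodendrocyte precursors, fell by 0.30 on the log2 scale (SE 0.0685, edgeR adjusted p = 0.0231), from 22.9 ± 2.61 CPM (SD, n = 7) in GH to 18 ± 1.95 CPM (SD, n = 8) in SI females. In males Sox6 was at -0.37 with an SE of 0.102 (edgeR adjusted p = 0.295) and at -0.14 without the 3 libraries; its transcript is 8227 bases long. The list's median was -0.05 in females and 0.03 in males, and -0.09 in males without the 3 libraries. The second male gene of the list by p was Maf, a factor of the Pvalb and Sst lineage, at 0.23 (edgeR adjusted p = 0.375) and at -0.00 without the 3 males.

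None of the 15 further genes of Pvalb and Sst interneurons and none of the 13 of Vip, Cck and Lamp5 interneurons passed in either sex. With length and GC trends removed 3 of them passed in females, where 1520 of all 16026 genes did, 538 higher and 982 lower. The 3 were Kcnc1, a potassium channel of fast-spiking cells, at 0.15, Erbb4, a neuregulin receptor, at -0.12 and Adarb2 at 0.23 (edgeR adjusted p = 0.0385, 0.0329 and 0.0241). Grin3a, an NMDA receptor subunit, and Syt2, a synaptotagmin of fast-spiking terminals, had the smallest p-values of the first list in females, at -0.16 and 0.23 (edgeR adjusted p = 0.0867 and 0.213). In males these were Pnoc, the precursor of nociceptin, at 0.33 and Kcnip1, a potassium channel partner, at 0.14 (edgeR adjusted p = 0.3 and 0.375), and without the 3 males they were at 0.12 and 0.05. Adarb2, a marker of interneurons of caudal origin, led the second list in females at 0.21 (edgeR adjusted p = 0.0867), ahead of the chemokine Cxcl14 at -0.09 (edgeR adjusted p = 0.264). In males Calb2, calretinin, was at 0.50 and Penk, the enkephalin precursor, at 0.22 (edgeR adjusted p = 0.3 and 0.345), and without the 3 males they were at -0.00 and 0.12.

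Of 13 genes for receptors of the members' products and the reelin adaptor, none passed in either sex. In females the smallest p-values were those of Dab1, the adaptor of reelin signalling, at -0.10, and Vipr2, a VIP receptor, at 0.55 (edgeR adjusted p = 0.142 and 0.33). In males the somatostatin receptors Sstr4 and Sstr1 were at -0.51 and -0.32 (edgeR adjusted p = 0.295 and 0.33). Sstr4 averaged 9.08 ± 8.05 CPM (SD, n = 7) in SI and 16.8 ± 3.8 CPM (SD, n = 8) in GH males, and without the 3 libraries it was at -0.28 and Sstr1 at -0.17. The receptor list as a whole had a median of 0.04 in females and -0.10 in males, or -0.05 without the 3 libraries.

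Markers of other cell types moved beside these results. In females 5 of 9 astrocyte markers were lower in SI mice, with Aldh1l1, a pan-astrocyte enzyme, at -0.27 (edgeR adjusted p = 0.0215), and their summed level ran from 4539 to 6487 CPM in SI and from 5526 to 7481 CPM in GH females. The GABA breakdown enzymes are also expressed by astrocytes, and the part of that cell type in their values was not tested. Of 6 dentate granule cell markers 1 was higher in SI females (Lct, 0.42, edgeR adjusted p = 0.0459), with summed levels of 291 to 431 CPM in SI and 253 to 362 CPM in GH females. Of 7 markers of glutamatergic neurons 1 was lower (Camk2a, -0.24, edgeR adjusted p = 0.0197), and Slc17a7, the vesicular glutamate transporter, was at 0.00. The fitted change was above 0 for 6 of the 7, counting Slc17a7, with a median of 0.04. With length and GC trends removed, Neurod6 (0.20) and Nrgn (0.12) were called higher (edgeR adjusted p = 0.0436 and 0.0411). Camk2a (-0.25) was then called lower (edgeR adjusted p = 0.00626). Of all 16026 genes, 538 were called higher and 982 lower in that fit. Of 7 endothelial markers 1 was higher (Flt1, 0.14, edgeR adjusted p = 0.0496).

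Markers of thalamic neurons, which lie next to the hippocampus, were fitted higher in SI males without passing the adjusted threshold. All 6 tested were above 0, between 0.40 and 1.13, with Prkcd at 0.87 and Tcf7l2 at 1.05 (edgeR adjusted p = 0.295 for each). Without the 3 males Prkcd and Tcf7l2 were at 0.69 and 0.61, and all 6 stayed above 0, between 0.10 and 1.39. Gbx2, tested in that fit and not in the one above, was at -0.40. The summed level of the 7 genes ran from 83.8 to 222 CPM in SI and from 69.2 to 109 CPM in GH males. Of the 5 markers of Cajal-Retzius cells, which make reelin, none passed in either sex. Their summed level ran from 5.88 to 11.1 CPM in SI and 5.2 to 12.9 CPM in GH females, and from 6.68 to 12 CPM in SI and 5.13 to 9.45 CPM in GH males. Their median Log2FC was 0.37 in females, where Reln was at -0.10, and 0.59 in males (0.17 without the 3 males), where Reln was at 0.08. These medians rest on genes of low level. The female median was that of Lhx1 (SE 0.304), with means of 0.586 CPM in SI and 0.485 CPM in GH females. The male median was that of Ebf3 (SE 0.255), with means of 1.25 CPM in SI and 1.19 CPM in GH males. Of the lists for CA1, CA3, striatum, neocortex, choroid plexus, oligodendrocytes and microglia, none held a gene that passed in either sex. With length and GC trends removed, where 982 of all 16026 genes were called lower in SI females, 4 genes of these lists were. These were Mpped1 (CA1), Rorb (neocortex), Mbp (oligodendrocytes) and P2ry12 (microglia), at -0.18, -0.23, -0.27 and -0.16. The part of these cell types in the members' values was not tested.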

How the data were processed

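Hippocampal RNA of 30 mice was sequenced, 1 library per mouse, in 4 groups of 7 or 8 by sex and housing. The authors used Trimmomatic 0.39 for trimming and Salmon 1.8.0 for quantification, with GRCm39 as the build in the processing notes, and deposited whole-number gene counts for 17477 Ensembl genes with at least 100 counts over all mice. Symbols were found for 16439 IDs (94.1%) and lengths, of the longest coding transcript in GENCODE vM1, for 15964 (91.3%).

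Each sex was fitted with edgeR 4.0.16 (quasi-likelihood, TMM, filterByExpr with a minimum count of 10) and surrogate variables from sva 3.50.0 (3 in females, 2 in males, 4 for the interaction), as the study used surrogate variables, with Benjamini-Hochberg adjustment at 0.05. Log2FC is SI minus GH. CPM values used TMM totals. Alternatives were DESeq2 1.42.0, limma-voom (limma 3.58.1), other numbers of surrogate variables, filters and scaling, the position code, removal of length and GC trends, and leaving out mice.

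The members and lists were chosen with earlier results of these data known. Named genes were the members and list genes past the threshold (otherwise the 2 with the smallest p per list and sex). They also included the 2 most like each member and the first 2 genes of each cell type list. Lct, Camk2a, Neurod6, Nrgn, Flt1, Kcnc1, Erbb4, Mpped1, Rorb, Mbp, P2ry12 and Ebf3 were added after their values were seen. Samples are separate animals, and replicates differed beyond sampling noise (chi-square per degree of freedom at least 9.16). GH mice shared cages, and the labels used do not give the cage. Mice that shared a cage therefore entered every test as independent, and the part of the cage was not tested. Depth was 18809307 to 100844898 counts. Tests were tried on simulated data.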

Additional observations from a re-analysis of the deposited data

Results flagged for a closer look

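In 4 of the 40 combinations of a gene and a group, 1 mouse lay farther from the others than Dixon's criterion allows, and chance alone flags about 1 group in 20. SI female 45 was highest for Slc32a1, at 117 CPM with the next SI female at 95.3, and for Reln, at 62.5 CPM with the next at 38.1. It had the deepest library of the series, with 100844898 counts. SI female 53 was highest for Cck, at 405 CPM with the next SI female at 308. GH male 2 was highest for Lamp5, at 66 CPM with the next GH male at 42.1. Without SI female 45 the female Log2FC was 0.07 for Slc32a1, against 0.08 with it, and -0.19 for Reln, against -0.10. Without SI female 53 it was 0.09 for Cck, against 0.10. The male Log2FC of Lamp5 was -0.22 with and -0.01 without GH male 2.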

How the results depend on the processing

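No paired analysis was possible because each mouse carries an animal number of its own and no 2 groups share one. The cause of each change below was not tested. Fits that left out mice also estimated the surrogate variables and their number anew and filtered the genes again. In females, Npy lay between 0.13 and 0.26 in 13 alternative fits and kept its call in 6 of them. It lost the call without surrogate variables (edgeR, 0.19), with 1 of them (0.20), with DESeq2 without them (0.19), with the position digit (0.22), with at least 10 counts in every mouse (0.13), with all groups in 1 fit (0.16) and with length and GC trends removed without surrogate variables (0.26). No member was then called (0). There were 2 with 5 surrogate variables (Gad1 at 0.14 and Npy), and 3 with DESeq2 and surrogate variables (Gad1 at 0.13, Lamp5 at 0.21 and Npy) or with the trends removed (Gad1 at 0.13, Cck at 0.15 and Npy). Of all genes in females, 624 were called, and 959, 1263 and 1520 under those last settings. The count was 0 without surrogate variables or with the position digit (1875 and 1915 genes at an unadjusted p under 0.05), 401 with DESeq2 without surrogate variables, and 90 with the trends removed without them. The share of lower calls was 75.3%, 64.6% with the trends removed and 51.8% with all groups in 1 fit. Female Sst turned above 0 with 1 surrogate variable (0.01), limma-voom (0.07), the position digit (0.04) and the trends removed with (0.04) or without (0.06) surrogate variables. Female Vip turned below 0 with limma-voom (-0.05) and with the trends removed without surrogate variables (-0.02).

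In males, the signs turned without surrogate variables for Gad1 (-0.08), Gad2 (-0.20), Slc32a1 (-0.04), Vip (0.18) and Reln (-0.26). They did so for the same genes with DESeq2 without surrogate variables (-0.07, -0.19, -0.03, 0.20 and -0.25) and with the position digit (-0.10, -0.22, -0.07, 0.18 and -0.31). Gad2 and Reln turned with 1 surrogate variable (-0.02 and -0.01) and limma-voom (-0.06 and -0.05). Sst, Npy and Cck turned with 5 surrogate variables (-0.07, -0.08 and -0.01). With the trends removed, Sst (-0.06) and Cck (-0.0002) turned, and without surrogate variables as well Gad1 (-0.01), Gad2 (-0.01), Slc32a1 (-0.04), Sst (-0.17), Npy (-0.15) and Reln (-0.004). With all groups in 1 fit, Pvalb (-0.05), Sst (-0.06), Npy (-0.02) and Cck (-0.03) turned. The same genes turned without SI males 25, 33 and 39 (-0.02, -0.17, -0.15 and -0.08), and Sst alone (-0.02) where surrogate variables were left out as well, a setting chosen after seeing the data. Male genes called were 0, and 1 with 5 surrogate variables or without those 3 mice, 44 with DESeq2 and surrogate variables and 304 without. The last setting called 1 member, Cck (0.62).

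The interaction called 1 gene, 0 without surrogate variables, with 1, with limma-voom, with the position digit, with the trends removed without surrogate variables and without the 3 males, 2 with the trends removed, and 8 and 3 with DESeq2 with and without surrogate variables. Vip, Npy and Cck turned above 0 without surrogate variables (0.17, 0.24 and 0.49), with DESeq2 without them (0.20, 0.27 and 0.51) and with the position digit (0.14, 0.12 and 0.38). Npy and Cck turned with 1 surrogate variable (0.02 and 0.19), and Cck with limma-voom (0.04). The 6 other members changed sign in 30 of 78 alternative fits.

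Leaving out 1 mouse at a time gave 88 (without SI female 68) to 1428 (without GH female 78) genes and 0 to 2 members in females, 0 to 2413 genes (without SI male 27) and 0 to 1 members in males, and 0 to 308 genes (without SI male 27) and 0 to 1 members for the interaction. In females Npy then ran from 0.12 to 0.23, Cck from 0.03 to 0.18, Lamp5 from 0.17 to 0.28, Slc32a1 from 0.06 to 0.17, Reln from -0.19 to -0.07, Sst from -0.08 to 0.09 and Vip from -0.04 to 0.06. In males Gad1 ran from 0.01 to 0.18, Npy from 0.005 to 0.25, Lamp5 from -0.27 to -0.01, Gad2 from -0.11 to 0.14, Slc32a1 from -0.02 to 0.25, Pvalb from -0.01 to 0.31, Sst from -0.05 to 0.20, Vip from -0.21 to 0.02, Cck from 0.02 to 0.26 and Reln from -0.13 to 0.21. For the interaction, Npy ran from -0.27 to 0.04, Cck from -0.20 to 0.03 and Lamp5 from -0.68 to -0.48.

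Depth left every member at or above 259 counts in each library.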
